A study of Anableps anableps with 8 samples.

Results

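Cones that carry the long-wavelength opsin were compared with cones that carry 1 of the copies of the green-sensitive rh2 opsin, in nuclei of the adult retina of the fish Anableps anableps. The cones were chosen by their opsin UMIs. The cones called lws cones here held at least 80% of their cone opsin UMIs (unique molecules counted) on rows annotated opn1lw1, and those called rh2 cones held at least 80% on the opn1mw1 copy ENSABLG00000007592. To enter, a nucleus needed at least 500 UMIs, at least 3 UMIs over 7 cone marker genes with more of these than of 5 rod marker genes, and at least 2 cone opsin UMIs. Of 6430 nuclei with at least 500 UMIs, 2462 were cones by this rule and 1927 of them had enough opsin UMIs. The lws cones numbered 122 of these 1927 nuclei, 6.33% (95% Wilson interval 5.33% to 7.51%), and the rh2 cones numbered 377, 19.6%. The opsin rows chose the cells, and they are left out of the levels and ratios of other genes below.

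Anableps is a fish that looks through air and water at the same time, with the ventral retina receiving light from above the water line and the dorsal retina light from below it. In most fish a mature cone makes mainly 1 class of opsin. Cones with lws opsin respond to red and yellow light, and cones with rh2 opsin respond to green light. In zebrafish, thyroid hormone receptor beta is known to drive the lws fate and the transcription factor six7 to keep rh2 expression. In cichlids, tbx2a is known to act on the balance between rh2 and lws opsins. The position of a cone along the dorsal to ventral axis also bears on its opsin in many fish. No deposited label gives a nucleus its place in the retina, so opsin and position cannot be told apart.

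The study's text speaks of 5 biological replicates and the labels of 8 technical sublibraries, whereas the count matrix carries 2 retina names and 2 sublibrary tags that match no label. The labels name no treatment, and all nuclei were fixed and frozen before barcoding. The 2 retina names are given below as retina 1 and retina 2, each with its own value, and no test was run. The lws cones comprised 68 nuclei of retina 1 and 54 of retina 2, with 928767 UMIs in all. The rh2 cones comprised 191 and 186 nuclei, with 2895753 UMIs. Median depth was 6535 UMIs per nucleus in lws cones and 6014 in rh2 cones. No cell barcode was shared between the sublibraries within either kind of cone.

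The opsin rows fitted the labels of both kinds of cone, as the rule ensures. Of 501 cone opsin UMIs in lws cones, 421 came from the lws copy ENSABLG00000000728, 74 from ENSABLG00000000746 and 1 from ENSABLG00000013729, and neither rh2 copy had any. Of 2003 opsin UMIs in rh2 cones, 1976 came from ENSABLG00000007592. Near the threshold, 5 lws cones and 17 rh2 cones had 80% to 90% of their opsin UMIs on their own opsin, and 7 and 25 cones just missed it at 70% to 80%. Opsin UMIs per nucleus were few, with a median of 3 in lws cones and 5 in rh2 cones. Only 2 were present in 34 lws and 71 rh2 cones, and such nuclei cannot have a share of 70% to 90%. The low counts near the threshold thus do not show how clean the choice was. Levels are given as CPM, UMIs per 1000000 UMIs of the summed nuclei, here over all rows and from then on without the opsin rows. The 7 cone markers summed to 4141 CPM in lws cones and 4468 in rh2 cones. These markers chose the nuclei, so their sums only describe the choice. RNA of rods was also present. The 11 genes of a rod marker list summed to 898 and 464 CPM in retinas 1 and 2 of the lws cones and to 1052 and 1009 in the rh2 cones, against 5145 in nuclei with rod markers. A copy of NR2E3 was the only member at 0 in lws cones. This list includes the 5 rod markers of the rule. They held 508 of its 662 UMIs in lws cones and 2376 of 2982 in rh2 cones. The rule kept these 5 below the cone markers in cones, and rods were chosen by having more of them. The contrast with rods was thus largely set by the choice. Rod levels here and below are sums over 2832 barcodes with a median of 2381 UMIs and a largest of 1022293. The deepest barcodes thus weigh most in them. Every list of markers of other retinal cells also summed higher in rods than in either kind of cone. The amacrine list summed to 327 CPM in rods, 87.3 in lws cones and 62.2 in rh2 cones. At least 1 UMI of the 5 rod markers of the rule was found in 45.9% of lws cones and 48.5% of rh2 cones. The part of this RNA in the results below was examined only by leaving out the nuclei that held it. The nuclei left were also shallower, with median depths of 5901.5 UMIs in lws cones and 4940 in rh2 cones. Nuclei with a rod marker UMI had 8294 and 7662. The choice kept 396222 UMIs of lws cones and 1112699 of rh2 cones. Depth thus changed along with rod RNA, and their parts were not tested apart.

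A log2 ratio is the lws level over the rh2 level. Levels are not divided by gene length, so they are compared between cells and not between genes. Intervals are 95% exact conditional intervals and cover counting error only, and UMIs of the same nucleus are not independent. Of 22926 genes without the opsins, 10804 had at least 20 UMIs over both kinds of cone and are called measured. A gene was called higher in 1 kind of cone where the interval left out 0 and the level was at least 2-fold higher in each retina. By this rule 263 measured genes, 2.43%, were higher in lws cones, 100 genes, 0.926%, were higher in rh2 cones, and 3.36% were called either way. The median log2 ratio of all measured genes was -0.006.

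**Figure D1:**
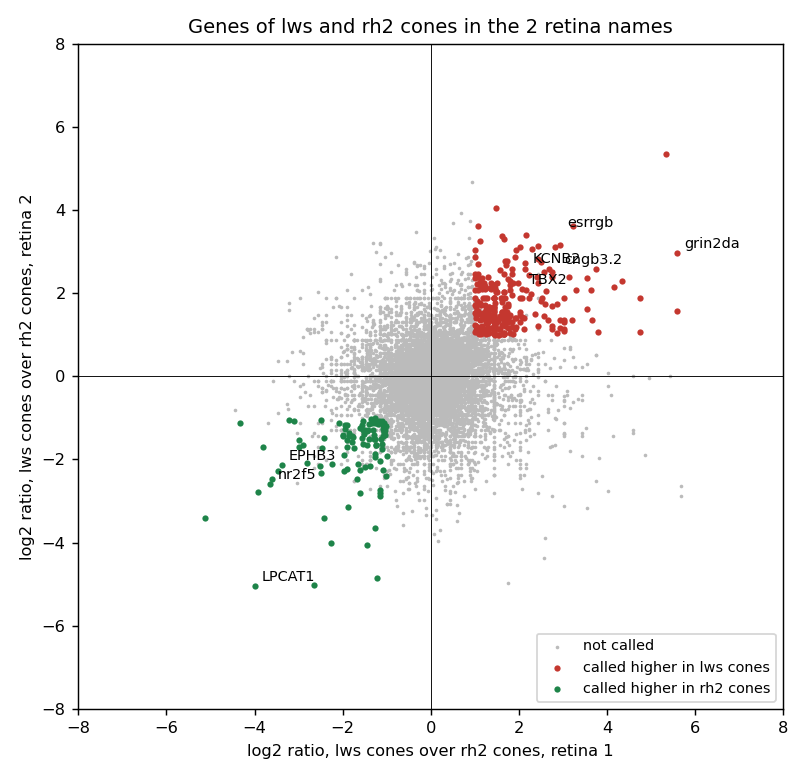
Each point is a measured gene, with its log2 ratio of lws over rh2 cones in retina 1 on the horizontal axis and in retina 2 on the vertical axis. Red points are the 263 genes called higher in lws cones and green points the 100 called higher in rh2 cones. Grey points were not called.

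Every call was repeated under 17 other settings, among them other scalings, stricter opsin shares, equal depth per nucleus, nuclei without rod marker UMIs, each sublibrary alone and each retina alone. Of the called genes, 17 were higher in lws cones under every one of these settings, 0.157% of the measured genes, and 10 were higher in rh2 cones, 0.0926%. These 27 genes are described in the next paragraphs by role, and the word steady is used for them. Among the 17 settings, the minimum of 1000 UMIs per nucleus kept all 122 lws and 377 rh2 cones, so it repeated the reported setting. Dropping the minimum of UMIs per gene left every ratio as it was. Neither of these settings could lose a call, and the tallies of settings below include both. Steady transcription factors on the lws side were esrrgb, TBX2, MEF2C and a copy of rxrbb, and on the rh2 side nr2f5, a copy of RARB and ZBTB46. On the phototransduction list guca1g and rcvrn2 were steady, on the outer segment list prph2b and on the ion channel list a copy of KCNB2, each higher in lws cones, as was the channel gene cngb3.2, which no list held. The ephrin receptor EPHB3 and the netrin receptor neo1a were higher in rh2 cones.

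**Figure D2:**
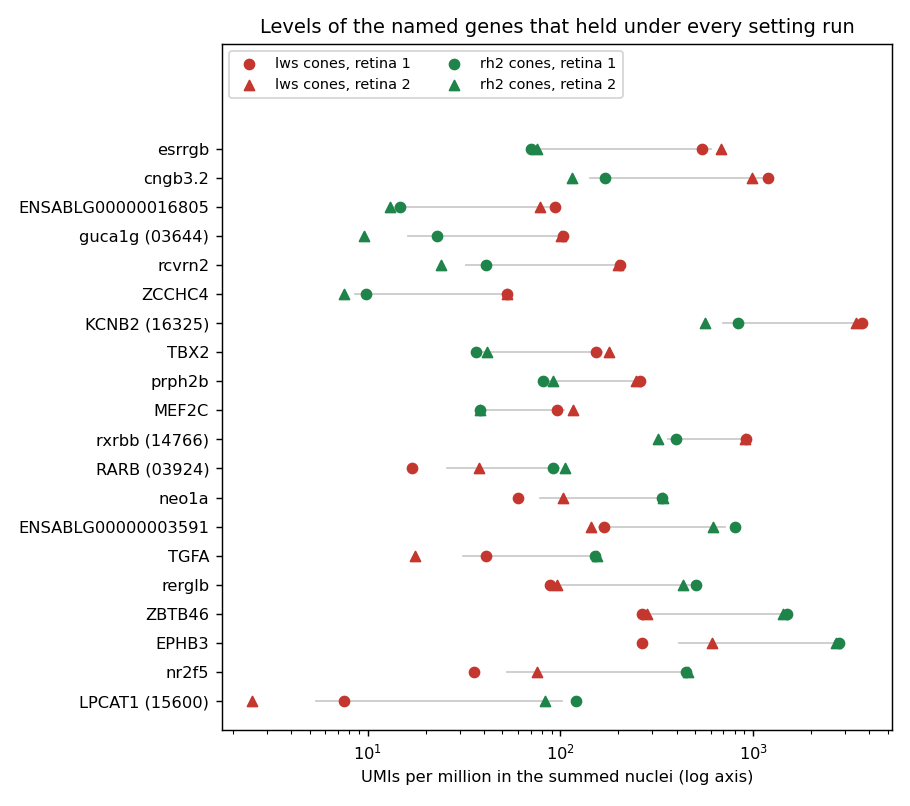
Levels in CPM, on a log axis, of the 20 genes that the naming rule picked and that were called under all 17 other settings, with circles for retina 1 and triangles for retina 2. In every row both red marks (lws cones) lie on the same side of both green marks (rh2 cones).

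Among the transcription factors, esrrgb had the largest steady ratio toward lws cones. It encodes an estrogen-related receptor of the gamma type, an orphan nuclear receptor known in mammals for acting on genes of mitochondrial metabolism. Its level was 541 and 679 CPM in retinas 1 and 2 of the lws cones and 70.5 and 76.0 in the rh2 cones. Both retinas of lws cones were thus far above both of rh2 cones, with a log2 ratio of 3.03 (interval 2.80 to 3.27). ESRRG, a second gene of the same receptor type, stood at 189 CPM in lws cones and 187 in rh2 cones, a log2 ratio of 0.01. The related receptor ESRRB had a log2 ratio of -0.80 and was not called. PPARGC1A, a coactivator of such receptors known for mitochondrial genes, was called higher in lws cones with 71.4 and 45.4 CPM against 12.6 and 13.0. The call was lost at equal depth and in sublibrary s2 alone. At equal depth only 7.5% of lws cones and 1.88% of rh2 cones held a UMI of PPARGC1A. Its log2 ratio stayed between 1.80 and 3.27 over the 17 other settings, so the lost calls do not show that the difference went away.

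TBX2, a T-box transcription factor, was at 152 and 179 CPM in lws cones and at 36.3 and 41.8 in rh2 cones. Its log2 ratio was 2.07 (1.71 to 2.43), and it ranged from 1.97 to 2.44 over the other settings. In the other cone classes TBX2 was lower than in both: it had 12.2 CPM in cones of the rh2 copy ENSABLG00000007605, 6.51 in sws1 cones and 1.92 in sws2 cones. The second T-box gene of this type, tbx2b, is known in zebrafish for its part in ultraviolet cone formation. It was at 28.0 CPM in lws cones and 15.6 in rh2 cones, a log2 ratio of 0.85 that was not called, but at 496 in sws1 cones and 382 in sws2 cones. The classes with most tbx2b thus had least TBX2.

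MEF2C (ENSABLG00000016708), a MADS-box transcription factor, was at 95.8 and 116 CPM in lws cones and at 38.4 and 38.3 in rh2 cones, a log2 ratio of 1.45 (1.04 to 1.85). Its paralog mef2cb stood at 503 CPM in lws cones and 456 in rh2 cones and was not called. The retinoid X receptor gene rxrbb (ENSABLG00000014766), whose product pairs with thyroid hormone and retinoic acid receptors, was at 921 and 901 CPM in lws cones and at 399 and 322 in rh2 cones. Its log2 ratio was 1.34 (1.21 to 1.48), and all other cone classes and rods were between 291 and 392. The other gene annotated rxrbb (ENSABLG00000005192) had a log2 ratio of -0.73 and was not called. Here and for other copies of a gene, how reads shared between copies were counted is not stated, so their separate levels are uncertain to that extent.

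On the rh2 side, nr2f5, a nuclear receptor of the COUP-TF family, was at 447 and 456 CPM in rh2 cones and at 35.7 and 75.7 in lws cones, a log2 ratio of -3.10 (-3.54 to -2.68). In lws cones 29 of its 49 UMIs came from a single nucleus of 16188 UMIs in retina 2, without which its level was 21.9. ZBTB46, a zinc finger factor known from dendritic cells, was at 1487 and 1425 CPM in rh2 cones and at 265 and 283 in lws cones, a log2 ratio of -2.42 (-2.61 to -2.23). ZBTB46 was at 3076 to 3499 CPM in the other 3 cone classes and at 1109 in rods, so lws cones were the lowest of all. RARB (ENSABLG00000003924), a retinoic acid receptor, was at 91.4 and 106 CPM in rh2 cones and at 16.9 and 37.9 in lws cones. Its log2 ratio was -1.93 (-2.60 to -1.33), while the other gene annotated RARB (ENSABLG00000015146) was at 51.8 CPM in rh2 cones and 48.5 in lws cones and was not called.

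Over the list of photoreceptor transcription factors, 4 of 47 measured genes were higher in lws cones and 1 in rh2 cones, with a median log2 ratio of -0.09. Over the nuclear receptors, 3 of 42 were higher in lws cones and 2 in rh2 cones, with a median of -0.004. These shares stand beside 2.43% and 0.926% of all measured genes. The lists overlap, so their shares are not separate results. The called genes esrrgb and rxrbb are on both of these lists, and nr2f5 and NR2F2 are on the nuclear receptor list and the dorsal to ventral list below. THRB, the thyroid hormone receptor known for the lws fate, was at 601 and 568 CPM in lws cones and at 470 and 486 in rh2 cones, a log2 ratio of 0.30 (0.15 to 0.44) that was not called. The other cone classes had less THRB than both: it was at 117 CPM in cones of the other rh2 copy, 96.9 in sws1 cones and 75.7 in sws2 cones, and at 218 in rods. A high THRB level was thus shared by the 2 kinds of cone compared here and not by cones of the other rh2 copy. The rh2 factor six7 had 84.0 CPM in lws cones and 103 in rh2 cones, a log2 ratio of -0.29 (-0.67 to 0.07). CRX, the homeobox factor of all photoreceptors, differed by -0.08 and the rod and cone factor SAMD7 by 0.00 on the log2 scale. SIX3, a homeobox factor of the eye field, was called higher in rh2 cones with 13 UMIs in lws cones and 89 in rh2 cones, but it was called under only 7 of the 17 other settings.

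Of 41 measured genes of the cone phototransduction list, 38 differed by less than 2-fold, 92.7%, beside 88.2% of all measured genes. On this list 2 genes were higher in lws cones, 4.88%, beside 2.43% of all measured genes, and 0 in rh2 cones. The intervals of 9 genes lay above 0 and those of 14 below it, with a median log2 ratio of -0.11. Both called genes encode calcium sensors. The guanylate cyclase activator gene guca1g (ENSABLG00000003644) was at 103 and 101 CPM in lws cones and at 23.0 and 9.58 in rh2 cones, a log2 ratio of 2.66 (2.14 to 3.19). A second gene annotated guca1g, with the preceding gene number (ENSABLG00000003643), had a log2 ratio of 0.56 and was not called. Its ratios in retinas 1 and 2 were 1.01 and 0.05. The recoverin gene rcvrn2, whose product restrains the opsin kinase, was at 203 and 199 CPM in lws cones and at 41.2 and 24.0 in rh2 cones, a log2 ratio of 2.63 (2.27 to 3.01). Its relative rcvrn3 stood at 827 CPM in lws cones and 916 in rh2 cones, a log2 ratio of -0.15.

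**Figure D3:**
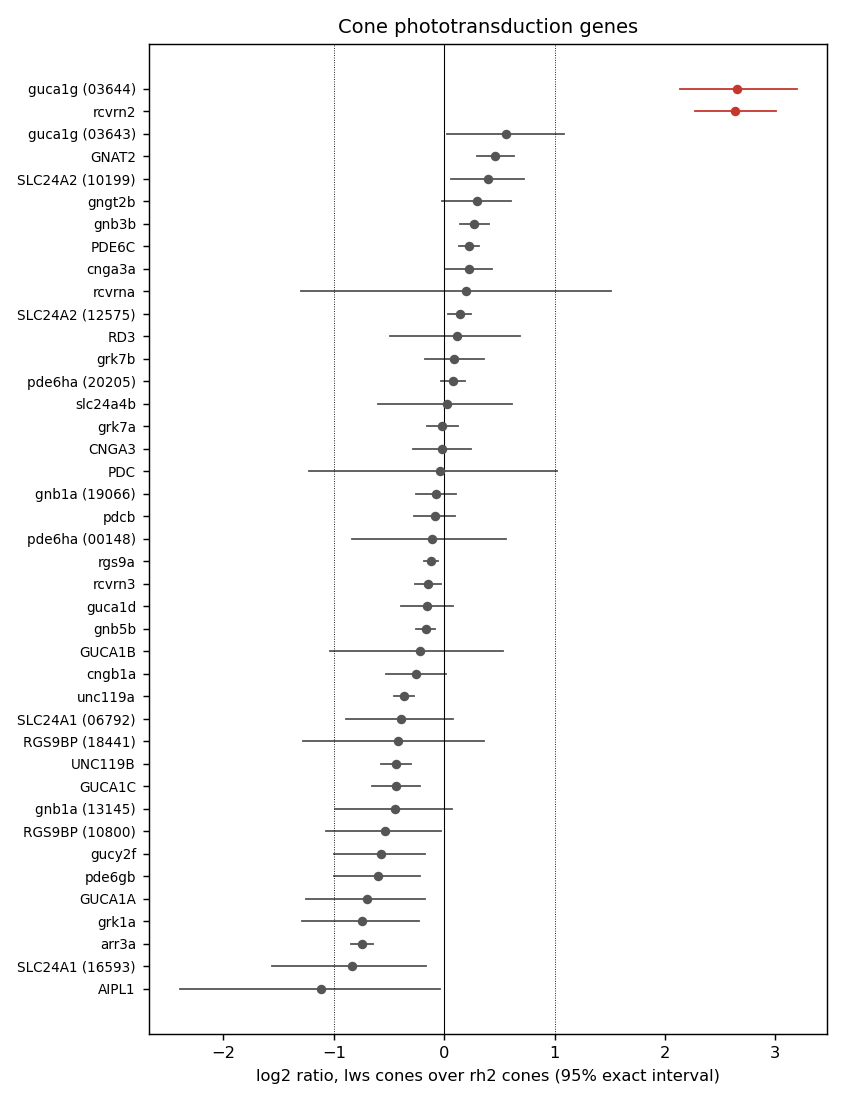
Log2 ratios of lws over rh2 cones for the 41 measured genes of the cone phototransduction list, with 95% exact intervals. Dotted lines mark a 2-fold difference, and only guca1g (ENSABLG00000003644) and rcvrn2, in red, were called.

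The cone marker genes that chose the nuclei are part of this list and of its shares above, and none was called. The choice asked for their UMIs in both kinds of cone, so their part in those shares was favoured in advance. The transducin gene GNAT2 had a log2 ratio of 0.46 (0.30 to 0.63) and the phosphodiesterase gene PDE6C 0.22 (0.13 to 0.32). The cone arrestin gene arr3a, which ends opsin signalling, was at 1054 CPM in lws cones and 1770 in rh2 cones, a log2 ratio of -0.75 (-0.85 to -0.65), and the 2 retinas gave -0.73 and -0.76. The opsin kinase gene grk7a and the channel gene CNGA3 both differed by -0.02 on the log2 scale. The regulator rgs9a was at 2728 CPM in lws cones and 2962 in rh2 cones, a log2 ratio of -0.12.

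The channel gene cngb3.2 stood outside that list because its name did not match the list's root. It encodes a beta subunit of the cone cyclic nucleotide gated channel, which closes when light is absorbed. Its level was 1197 and 984 CPM in lws cones and 170 and 114 in rh2 cones, a log2 ratio of 2.96 (2.80 to 3.13). The other beta subunit gene, cngb3.1, was at 962 and 790 CPM in lws cones, with a log2 ratio of 0.55 (0.43 to 0.67), and was not called. In cones of the other rh2 copy, sws1 cones and sws2 cones, cngb3.2 was at 547, 490 and 923 CPM, so rh2 cones of copy ENSABLG00000007592 were the lowest cone class.

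KCNB2 (ENSABLG00000016325), a delayed rectifier potassium channel subunit of the Kv2 type, had 3659 and 3403 CPM in lws cones and 832 and 565 in rh2 cones, a log2 ratio of 2.35 (2.27 to 2.43). The second gene annotated KCNB2 (ENSABLG00000005617) had 543 CPM in lws cones and 550 in rh2 cones, a log2 ratio of -0.02. Over the list of ion channels and transporters, 3 of 52 measured genes were higher in lws cones and 4 in rh2 cones, with a median of 0.01. These were 5.77% and 7.69%, beside 2.43% and 0.926% of all measured genes. The calcium channel subunit gene cacna2d4a, which serves the photoreceptor synapse, was at 649 CPM in lws cones and 1615 in rh2 cones, a log2 ratio of -1.32 (-1.44 to -1.19) called under 15 of the 17 other settings. The sodium, potassium and chloride cotransporter gene SLC12A2 had a log2 ratio of -1.11 (-1.40 to -0.83) and kept its call under 13. Calls of kcnh5b and KCNN3 on the lws side and of slc12a5b and atp1b1b on the rh2 side were lost in 6 or more settings.

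Of 39 measured genes of the outer segment and cilium, 36 differed by less than 2-fold, 92.3%, beside 88.2% of all measured genes. On this list 2 genes were higher in lws cones, 5.13% beside 2.43%, and 0 in rh2 cones. The tetraspanin gene prph2b, whose product shapes the rims of outer segment discs, was at 259 and 247 CPM in lws cones and at 81.0 and 91.7 in rh2 cones, a log2 ratio of 1.56 (1.29 to 1.82). Its copy prph2a was at 376 CPM in lws cones and 292 in rh2 cones, a log2 ratio of 0.36. The protocadherin gene pcdh15b, known from Usher syndrome, had a log2 ratio of 1.11 (0.94 to 1.29), and its call was lost under TMM scaling and against rh2 cones without a vax UMI.

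**Figure D4:**
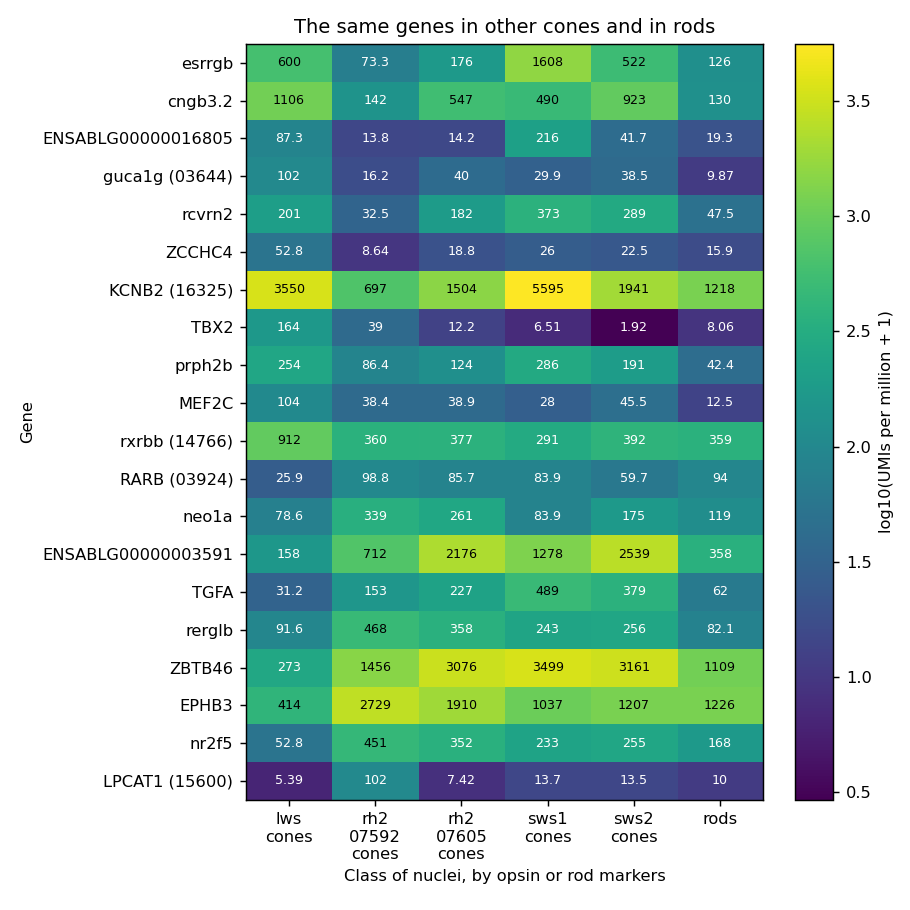
Levels in CPM of the 20 genes of the plot of levels by retina, written in each cell and coloured on a log10 scale, in lws cones, rh2 cones of copies ENSABLG00000007592 and ENSABLG00000007605, sws1 cones, sws2 cones and rods. For esrrgb, cngb3.2, rcvrn2 and KCNB2, the cones of copy ENSABLG00000007592 are the lowest cone column, and for ZBTB46, EPHB3 and nr2f5 the lws cones are.

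The other cone classes show on which side a difference lies. These genes were chosen for a difference between lws and rh2 cones, so 1 of these kinds often lies at an end, and no test is given. Of the 17 steady genes higher in lws cones, the rh2 cones of copy ENSABLG00000007592 were below all other 4 cone classes in both retinas for 12, and the lws cones were above all others for 8. For esrrgb the sws1 cones, at 1608 CPM, were above the lws cones, and for KCNB2 they were at 5595. TBX2, MEF2C, rxrbb, guca1g and ZCCHC4 were highest in lws cones. Of the 10 steady genes higher in rh2 cones, lws cones were the lowest class for 7 and rh2 cones the highest for 6. LPCAT1 (ENSABLG00000015600) was the clearest of the last kind.

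LPCAT1 encodes an acyltransferase that remakes phosphatidylcholine, and its loss is known to cause photoreceptor degeneration in mice. This copy was at 120 and 83.5 CPM in rh2 cones and had 5 UMIs in all lws cones, against 294 in rh2 cones, a log2 ratio of -4.24 (-5.87 to -3.00). It was between 7.42 and 13.7 CPM in the other cone classes and at 10.01 in rods, so its level in rh2 cones was not shared with cones of the other rh2 copy. The other gene annotated LPCAT1 (ENSABLG00000021193) was at 46.3 CPM in lws cones and 37.7 in rh2 cones and was not called. LPIN1, a phosphatidate phosphatase gene, was at 356 and 383 CPM in rh2 cones and at 143 and 156 in lws cones. It was singled out after its values were seen, since its log2 ratio of -1.31 placed it outside the naming rule.

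Among the other steady genes of the rh2 side, rerglb, a RAS-like small GTPase gene, was at 506 and 431 CPM in rh2 cones and at 88.3 and 95.9 in lws cones, a log2 ratio of -2.35 (-2.69 to -2.04). TGFA, a ligand of the epidermal growth factor receptor, was at 151 and 155 CPM in rh2 cones and at 41.3 and 17.7 in lws cones. Its log2 ratio was -2.30 (-2.89 to -1.75), and 10 of the 29 UMIs in lws cones came from 1 nucleus. The gene ENSABLG00000003591, which the files leave without a symbol, had a log2 ratio of -2.17 (-2.42 to -1.93). The same lws nucleus held 40 of its 147 UMIs in lws cones. Without that nucleus its lws level was 116 CPM, beside 158 with it. On the lws side, ZCCHC4, an RNA methyltransferase gene, was at 52.62 and 53.01 CPM against 9.77 and 7.53, a log2 ratio of 2.61 (1.89 to 3.37), and the unnamed ENSABLG00000016805 had 2.66 (2.09 to 3.24).

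Another 6 steady genes of the lws side fell outside the naming rule and were also singled out after their values were seen. The atypical cadherin gene FAT4 was at 665 and 616 CPM in lws cones and at 159 and 166 in rh2 cones, a log2 ratio of 1.99. The transition zone gene of the cilium tmem237a was at 139 and 116 against 25.8 and 24.6, a log2 ratio of 2.36. The ankyrin gene ANK3 was at 286 and 343 against 114 and 107, a log2 ratio of 1.49. For dennd2da, PXYLP1 and sh3pxd2aa the log2 ratios were 2.20, 1.86 and 1.503. FAT4 was far lower in sws2 cones, at 46.2 CPM, whereas ANK3 was higher in sws1 cones, at 1085.

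Genes that pattern the retina from dorsal to ventral took the largest share of calls among the lists. Of 23 measured genes, 5 were higher in lws cones and 2 in rh2 cones, 21.7% and 8.70%, beside 2.43% and 0.926% of all measured genes, and the median log2 ratio was 0.71. The list was chosen with earlier results of these data known. EPHB3 (ENSABLG00000009081), a receptor of B-type ephrins that is high in the ventral retina of chick and mouse, was at 2769 and 2689 CPM in rh2 cones and at 265 and 613 in lws cones, a log2 ratio of -2.72 (-2.87 to -2.57). The same lws nucleus that held most nr2f5 UMIs held 179 of the 384 EPHB3 UMIs of lws cones, and without it the lws level was 225. The paralog ephb3a was at 7.54 CPM in lws cones and 8.98 in rh2 cones, and ephb2b had a log2 ratio of -0.72 that was not called.

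Both measured copies of efnb2a, which encodes the B-type ephrin of the dorsal retina, were higher in lws cones. The copy ENSABLG00000016818 was at 333 and 416 CPM in lws cones and at 152 and 127 in rh2 cones, with a log2 ratio of 1.40 (1.19 to 1.61). The copy ENSABLG00000001777 was at 95.8 and 65.6 in lws cones and at 28.6 and 26.7 in rh2 cones, with a log2 ratio of 1.59 (1.11 to 2.05). Each was called under 14 of the 17 other settings. The COUP-TF gene NR2F2 (ENSABLG00000012161) was at 43.2 and 27.8 CPM in lws cones and at 7.68 and 4.11 in rh2 cones, a log2 ratio of 2.64 (1.76 to 3.57) from 34 and 17 UMIs, called under 13 of the 17 settings. PAX2 was called from 25 and 13 UMIs, of which 1 lws nucleus held 36.0%, and its log2 ratio was -0.51 in nuclei without a rod marker UMI.

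The defining genes of the axis themselves missed the call under the reported setting and gained it under others. VAX2 was called higher in rh2 cones under 10 of the 17 other settings and tbx5b higher in lws cones under 8. For each gene these include the call gained by leaving out the retina in which it fell short, which that choice decides. They also include the means over nuclei, where no interval was asked for. Against rh2 cones without a vax UMI the ratio of VAX2 is set by that choice of nuclei. tbx5b was called there with 2 UMIs in rh2 cones, beside 34 in the reported setting, and the part of that choice was not tested. VAX2, the ventral homeobox gene, was at 97.7 and 109 CPM in lws cones and at 199 and 216 in rh2 cones, a log2 ratio of -1.02 (-1.35 to -0.70). Retina 1 gave -1.03 and retina 2 gave -0.99, just under a 2-fold difference. The dorsal gene tbx5b was at 37.6 and 45.4 CPM in lws cones and at 20.2 and 3.42 in rh2 cones. Its log2 ratios were 0.89 and 3.73 in retinas 1 and 2 and 1.80 (1.09 to 2.51) over both, so it missed the call in retina 1. Among nuclei without a rod marker UMI, 66 lws cones had VAX2 at 42.9 CPM and 194 rh2 cones had it at 208, a log2 ratio of -2.27 (-3.08 to -1.56). Among those with one, the levels were 147 and 207. In the nuclei without, tbx5b had 21 UMIs in lws cones and 2 in rh2 cones.

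Single nuclei show the same spread. With both tbx5 genes and VAX2 considered, 18 lws cones held only tbx5 UMIs, 18 only VAX2 UMIs, 8 both and 78 neither. Among rh2 cones the counts were 2, 189, 13 and 173. VAX2 UMIs were thus found in 53.6% of rh2 cones and 21.3% of lws cones, and in 44.0% of rods, at median depths of 6014, 6535 and 2381 UMIs. At this depth most lws cones thus showed no UMI of these genes. Of the 66 lws cones without a rod marker UMI, 7 held VAX2 UMIs and 13 held tbx5 UMIs. Of the 56 with one, 19 and 13 did. In rh2 cones VAX2 UMIs were in 87 of 194 nuclei without a rod marker UMI and in 115 of 183 with one. The nuclei without were also shallower, and the part of rod RNA in these counts was not tested. SMOC1 and CYP27C1, also on the list, are not read as differences: 1 lws nucleus held 214 of 224 SMOC1 UMIs and another held 39 of 43 CYP27C1 UMIs.

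Nuclei of at least 2000 UMIs were thinned to that depth, which kept 120 lws and 373 rh2 cones. Of the rods 1617 were kept and 1215 were too shallow, so the rod shares here describe the deeper rods. The 73 named genes were called from these same nuclei, so the direction of their shares was largely set in advance. For 70 of them the share of nuclei with a UMI was higher in the kind of cone with the called level. The other 3 went the opposite way: slc12a5b was found in 3.33% of lws and 2.95% of rh2 cones, sema5ba in 4.17% and 1.88%, and rlbp1a in 1.67% and 2.41%. At that depth esrrgb was found in 55.8% of lws cones, 5.63% of rh2 cones and 9.71% of rods, against 77.9% and 11.4% of the cones unthinned. KCNB2 (ENSABLG00000016325) was found in 97.5% of lws cones, 33.5% of rh2 cones and 63.9% of rods. For cngb3.2 the shares were 77.5%, 13.1% and 10.6%, and for TBX2 they were 34.2%, 7.77% and 0.680%. In the other direction, EPHB3 was found in 15% of lws cones, 94.6% of rh2 cones and 49.8% of rods. The share for nr2f5 was 4.17%, 53.9% and 16.0%, and that for ZBTB46 was 19.2%, 78.6% and 73.8%. Nearly all rh2 cones thus held EPHB3, and the lws share was below that of rods for EPHB3, nr2f5 and ZBTB46.

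**Figure D5:**
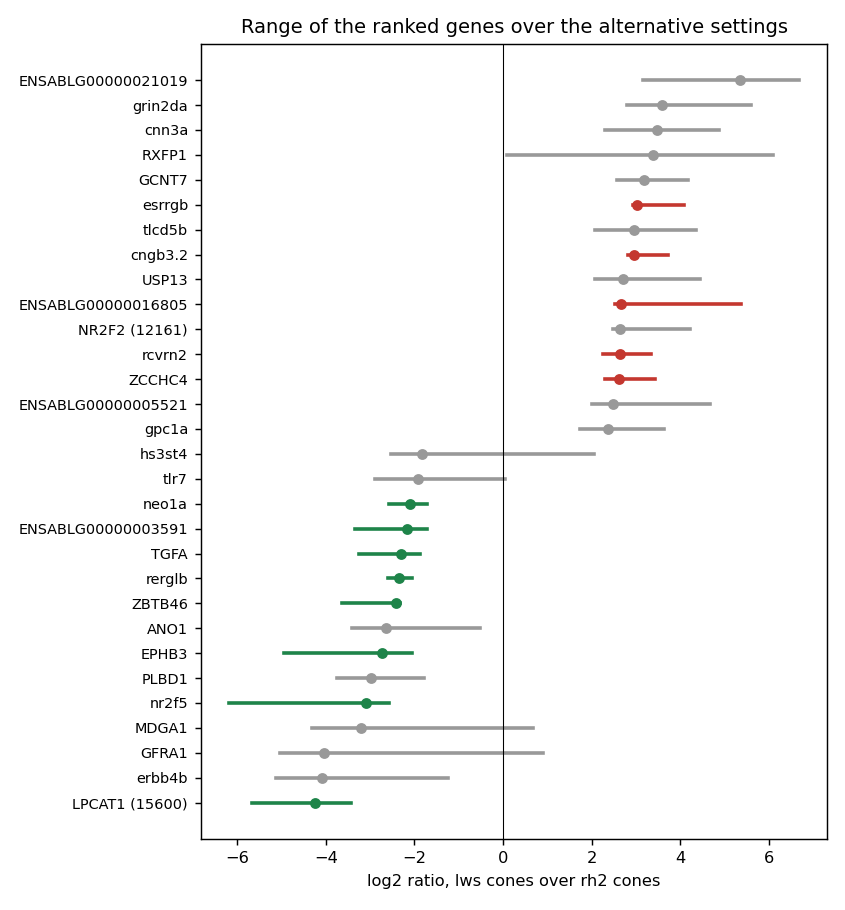
Log2 ratio of lws over rh2 cones for the 15 highest ranked genes of each side, with a dot for the reported value and a line from the lowest to the highest value over the 17 other settings. Coloured genes were called under all settings, and grey genes lost the call under at least 1, among them MDGA1 and GFRA1, whose lines cross 0.

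Of 79 measured genes of the axon guidance and ephrin list, 10 were higher in lws cones and 4 in rh2 cones, with a median of 0.19. These were 12.7% and 5.06%, beside 2.43% and 0.926% of all measured genes. EPHB3 and the called copies of efnb2a are also on the dorsal to ventral list, so the shares of these lists are not separate results. Of the 14 called genes 2 were steady, EPHB3 and neo1a, beside 27 of the 363 genes called in all. neo1a, the gene of the netrin receptor neogenin, had 336 and 342 CPM in rh2 cones and 60.1 and 103 in lws cones, a log2 ratio of -2.11 (-2.47 to -1.76). The guidance receptor gene ROBO3 (ENSABLG00000001517) had 135 CPM in lws cones and 52.5 in rh2 cones, a log2 ratio of 1.36 called under 15 of the 17 settings, and rods had 250. EPHA7 (ENSABLG00000007014) had a log2 ratio of 1.14 called under 11. By contrast ROBO1, sema5ba and SEMA3C took the opposite sign in nuclei without a rod marker UMI.

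Ribbon synapse genes gave 5 of 56 higher in lws cones and 2 in rh2 cones, with a median of -0.05 and none steady. These were 8.93% and 3.57%, beside 2.43% and 0.926% of all measured genes. grin2da, an NMDA receptor subunit gene, was at 33.8 and 42.9 CPM in lws cones and at 0.70 and 5.48 in rh2 cones, from 35 and 9 UMIs, with a log2 ratio of 3.60 (2.51 to 4.84) called under 14 settings. GRIA4, an AMPA receptor subunit gene, had a log2 ratio of 2.27, but 1 lws nucleus held 41.6% of its UMIs and sublibrary s2 alone gave -0.13. RIMS2 and CABP4, genes of the photoreceptor release site, were called higher in rh2 cones. In rods they were at 519 and 389 CPM, above the 126 and 87.8 of rh2 cones, and their log2 ratios were -0.65 and 0.90 in nuclei without a rod marker UMI, the last from 2 UMIs.

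The same holds for several of the top ranked genes of the rh2 side. MDGA1, GFRA1, ANO1, tlr7 and hs3st4 were higher in rods, at 108 to 133 CPM, than in either kind of cone. In nuclei without a rod marker UMI none of these 5 was called, and each was at 16.2 CPM or less in rh2 cones. For MDGA1, 1 rh2 nucleus held 155 UMIs, and the call was lost without the top nucleus of each gene. Of erbb4b, a neuregulin receptor gene with 4 UMIs in lws cones and 212 in rh2 cones, 36.3% of the rh2 UMIs lay in 1 nucleus. PLBD1 had 3 and 74 UMIs, and its log2 ratio of -2.98 (-5.29 to -1.38) was called under 13 of the 17 settings.

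The remaining ranked genes of the lws side rested on few UMIs. GCNT7, a glycosyltransferase gene, had 38 UMIs in lws cones and 13 in rh2 cones, with levels of 47.0 and 32.8 CPM against 3.49 and 5.48 and a call under 15 of the 17 settings. USP13, a deubiquitinase gene, had 23 and 11 UMIs and a log2 ratio of 2.70 (1.61 to 3.89), and it was called under 8 settings. The actin binding gene cnn3a had 18 and 5 UMIs, and it was called under only 6 settings. ENSABLG00000021019, without a symbol, had a log2 ratio of 5.34 (3.34 to 8.46) from 26 and 2 UMIs and was called under 9 settings, and 1 lws nucleus held 26.9% of its lws UMIs.

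Markers of Müller glia were also uneven: their list summed to 239 and 338 CPM in lws cones and to 124 and 140 in rh2 cones. Of its 12 genes, SLC1A3 and apoea were at 0 in lws cones and cavin2b in rh2 cones.
The visual cycle gene rlbp1a, which binds retinal and marks these glia, was called higher in lws cones with 67.9 against 14.2 CPM, and 1 nucleus held 33.3% of its lws UMIs. Without rod marker nuclei its log2 ratio was 0.00. The glutamine synthetase gene glula, also a glial marker, had a log2 ratio of 1.51, and 0.23 without those nuclei. A further glial marker, rlbp1b, lay the other way at 25.9 CPM in lws cones and 41.1 in rh2 cones, a log2 ratio of -0.67 that was not called. Their part in the result was not tested further. The retinoid binding gene RBP3 of the same list was lower in lws cones, with a log2 ratio of -0.78 that was not called.

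Of 45 measured genes of Wnt, BMP, FGF and Notch signalling, 3 were higher in lws cones and 1 in rh2 cones, 6.67% and 2.22%, beside 2.43% and 0.926% of all measured genes. The glypican gene gpc1a, a heparan sulfate proteoglycan of the cell surface, was at 126 and 146 CPM in lws cones and at 23.7 and 28.1 in rh2 cones, with a log2 ratio of 2.38 (1.95 to 2.81) called under 16 of the 17 settings. Its relative GPC4 was at 35.7 and 45.4 against 4.89 and 13.7, a log2 ratio of 2.09. Cell adhesion genes gave 1 of 64 in each direction, 1.56%, and clock and melatonin genes 0 of 26 in either. Glycolysis and mitochondrial genes gave 2 of 46 higher in lws cones, glula and PPARGC1A, 4.35%, and the 8 measured stress genes gave 0. The median log2 ratio of the glycolysis and mitochondrial list was 0.09.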

How the data were processed

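Nuclear RNA of adult whole retinas was barcoded with the Parse Evercode chemistry, per the labels' protocols. The authors deposited a matrix of raw UMI counts per gene and barcode, with a table naming the genes and a table of barcodes, for 119839 barcodes. The sources used here name no aligner or genome build. No deposited file pairs the retina names with the labels, so they were treated as 2 unmapped samples, each with its own value. For this reason no count test was run and no p-value is given, and gene counts were summed per kind of cone and retina.

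Members, gene lists and alternatives were chosen with earlier results of these data known. Called genes needed at least 20 UMIs and a 95% exact conditional (Clopper-Pearson) interval without 0. They also needed a log2 ratio of at least 1 in each retina. Means over nuclei were given no interval of their own. For the call and the ranking, counts under 3 were set to 3 in the lower group only, whereas printed log2 ratios use the counts as they are, with only 0 set to 3. The plan named no group, and this reading was chosen after 1 gene with opposite signs had been called. Named genes are the top 15 per side by the smaller retina ratio, plus every called member of 14 lists, 73 in all. Genes matched a list by symbol or by symbol with a copy letter, and small GTPase genes that matched by name alone were taken out of the rod markers. Copies with the same symbol may share reads. No doublet caller was run. Alternatives were edgeR TMM and median-ratio scaling, minimums of 50 UMIs and of none, 3 opsin UMIs with a 95% share, nuclei of 1000 UMIs, thinning to 2000 UMIs, nuclei without a rod marker UMI, without the deepest 10% of nuclei, means over nuclei, without the top nucleus of each gene, rh2 cones without a vax UMI, each sublibrary, each retina and, added after seeing the data, without the 25% of nuclei with most other-cell markers. The calling script was tested on simulated sums drawn as independent Poisson counts. These held no clustering of UMIs in single nuclei and no stray RNA, so they cannot show how the call performs on these nuclei. Python 3.11.15, numpy 2.4.6, scipy 1.17.1, pandas 2.3.3, R 4.3.3 and edgeR 4.0.16 were used.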

Additional observations from a re-analysis of the deposited data

How the results depend on the processing

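The call depends on 2 retina names that could not be tied to animals, and on 122 lws nuclei, so it describes these nuclei. Both kinds of cone came from each retina name and were compared within it, but no paired test was run, since no label ties these names to samples. The number of genes higher in lws cones was 155 with a minimum of 50 UMIs, 135 at equal depth, 555 as means over nuclei and 821 against rh2 cones without a vax UMI, and 489 to 500 with 1 retina left out, where a single retina decides. The means over nuclei had no interval of their own. The 555 thus did not rest on the same rule as the reported number, and the effect of averaging alone was not tested. The number higher in rh2 cones was 50 at equal depth and 153 without the top nucleus of each gene. It was 316 to 420 with 1 retina left out. Without the top nucleus of each gene the UMI totals were left unchanged. One nucleus is also a larger part of 122 lws cones than of 377 rh2 cones. The median log2 ratio was then -0.104, beside -0.006 as reported, so this setting leaned toward rh2 cones. At equal depth 5887 genes were measured, beside 10804 in the reported setting, and the others could not be called there. Without a rod marker UMI 66 lws and 194 rh2 cones remained, at lower median depths of 5901.5 and 4940 UMIs. Leaving out vax UMIs was done for rh2 cones only. It kept 175 rh2 cones at a median of 4771 UMIs, beside all 122 lws cones at 6535, so depth differed between the kinds of cone. TMM scaling gave 215 and 128 genes. Of the 73 named genes, 20 were called under all 17 settings.

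Other named genes took the opposite sign of log2 ratio, several from few UMIs, and the cause was not tested. Without a rod marker UMI the values were 0.68 for MDGA1, 0.90 for GFRA1, -0.51 for PAX2, -1.47 for kcnh5b, -0.90 for KCNN3, 0.90 for CABP4, 0.56 for ROBO1, 1.11 for sema5ba, -1.83 for SEMA3C and -0.42 for NTN4. Without the deepest 10% of nuclei they were -0.31 for kcnh5b, 0.55 for ROBO1, -1.26 for SEMA3C and -0.13 for NTN4. As a mean over nuclei ROBO1 was at 0.26. Against rh2 cones without a vax UMI the values were 0.044 for tlr7, 2.04 for hs3st4, 0.90 for RIMS2, 0.60 for ROBO1 and 0.85 for cntnap5a. Sublibrary s1 gave 0.31 for ROBO1 and 0.33 for cntnap5a, and s2 gave -0.13 for GRIA4 and -1.65 for efna3a. Without the 25% of nuclei with most other-cell markers the values were -0.012 for PAX2, 0.49 for sema5ba and -1.01 for SEMA3C.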

Other observations

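Several genes called higher in lws cones or listed beside them drew most of their UMIs from few nuclei. For slit1a, an axon guidance ligand gene, 1 nucleus held 67.6% of the lws UMIs and 1 held 70% of the rh2 UMIs. RXFP1, the relaxin receptor gene, ranked among the top 15 of the lws side with a log2 ratio of 3.40, and 16 of its 27 lws UMIs came from 1 nucleus of 9268 UMIs. The lws nucleus of 16188 UMIs that held 46.6% of the EPHB3, 59.2% of the nr2f5 and 95.5% of the SMOC1 UMIs of lws cones carried 2 lws opsin UMIs, none of another cone opsin, 3 rod marker UMIs, 10 VAX2 UMIs and 3 tbx5 UMIs.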
